A study of Drosophila melanogaster with 3 samples.

Results

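Of 7545 reproducible peaks of CG10543-eGFP in Drosophila melanogaster embryos, 2353 lay at one-way protein-coding promoters and are described here. A summit, the base of highest signal in a peak, was placed there when it fell within 500 bp of a transcription start site (TSS), when its nearest TSS, transposable elements left out, belonged to a protein-coding gene, and when that gene had no nearest upstream protein-coding neighbour on the other strand within 1000 bp, measured between the most 5′ TSSs. The rule used positions and annotation only, and no signal. Another 1465 peaks lay at head-to-head promoters, where such a neighbour exists, 311 at starts of noncoding RNA genes, and 3416 over 500 bp from every TSS. The 2353 peaks belonged to 1782 of the 9354 one-way protein-coding genes, or 19.1%. One-way refers to protein-coding neighbours: 410 of the one-way genes had a noncoding RNA start within 1000 bp upstream on the other strand, and 85 of these (20.7%) had a peak.

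The study measured the binding of CG10543 by chromatin immunoprecipitation and sequencing with an anti-GFP antibody in whole embryos of mixed sex, 0 to 24 h old, in 3 biological replicates that form 1 group. All samples came from 1 transgenic line with GFP fused to the C-terminus of the protein; the sources used here give neither the promoter that drives the fusion nor whether untagged protein is also made, and no sample without the tag was analysed here. The age range pools all embryonic stages and all tissues, so a site bound in a few cells and one bound weakly in many cannot be told apart. Deposited were ranked regions for each replicate and for the pooled data, 30000 each, and the set labelled optimal that passed the irreproducible discovery rate (IDR). This measure keeps regions whose ranks are reproducible between the lists compared, and not every region of the set had a match in all 3 replicates. Read totals are not in these lists, so depth is unknown and ranks were compared, not signal levels.

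Transcription by RNA polymerase II starts at core promoters, short stretches around the TSS that can hold an initiator, a TATA box or other elements such as the DNA replication-related element (DRE). Many genes in the compact fly genome lie head to head and share their upstream sequence with a divergent partner. For a one-way gene, as defined here, the nearest protein-coding start upstream of the most 5′ TSS is not such a partner within 1000 bp. An upstream summit can still lie in or near another gene. Another gene body covered the start of 2163 one-way genes, and 55 members had a nearest TSS shared by several genes. CG10543 is annotated as a zinc finger protein, a class of proteins of which many bind DNA at specific sequences.

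Sequences of some of the best-ranked members are shown to give the base content and motifs at their summits. The 201 bases around the summit are printed from the RefSeq Release 6 genome (dm6), 5′ to 3′ on the strand of the gene, with the summit at base 101. Capitals mark, on either strand, Motif 1 (GGTCACACT), the DRE (TATCGATA), Ohler motif 7 (CA, then G or T, then CNCT, then A or G), the GAGA motif (GAGAGAG), the Zeste motif (C or T, GAG, C or T, G) and the 9-letter word CCACTGTGC with its reverse complement. The first 6 are among the best-ranked peaks but are not the 6 best. Peaks of HmgZ, Pdrg1, Sox14 and Tina-1 had better mean ranks than fok and Hex-A. They were left out by their chromosome arm, not by rank. None of these 6 motifs and words is in the first 6 sequences. The HmgZ peak ranked 4, 10 and 11 in replicates 1, 2 and 3, which is not shown, holds the 9-letter word. Other motifs searched were not marked.
CG14100: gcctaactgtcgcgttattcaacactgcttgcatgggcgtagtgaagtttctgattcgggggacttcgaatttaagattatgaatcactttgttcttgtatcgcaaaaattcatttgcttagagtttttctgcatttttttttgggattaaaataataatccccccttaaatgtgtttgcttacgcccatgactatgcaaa
Gapdh2: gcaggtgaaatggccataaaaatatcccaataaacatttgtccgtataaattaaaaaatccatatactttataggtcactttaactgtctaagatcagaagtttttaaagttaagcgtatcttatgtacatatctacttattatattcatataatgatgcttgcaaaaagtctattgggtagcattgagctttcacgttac
larp: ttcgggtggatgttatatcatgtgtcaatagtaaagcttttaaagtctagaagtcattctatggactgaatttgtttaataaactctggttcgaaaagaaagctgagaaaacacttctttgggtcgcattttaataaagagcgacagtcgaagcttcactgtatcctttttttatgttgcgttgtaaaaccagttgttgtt
elav: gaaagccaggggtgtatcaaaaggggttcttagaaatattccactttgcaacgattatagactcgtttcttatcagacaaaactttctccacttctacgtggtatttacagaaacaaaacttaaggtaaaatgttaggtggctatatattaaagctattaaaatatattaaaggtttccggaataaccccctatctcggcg
fok: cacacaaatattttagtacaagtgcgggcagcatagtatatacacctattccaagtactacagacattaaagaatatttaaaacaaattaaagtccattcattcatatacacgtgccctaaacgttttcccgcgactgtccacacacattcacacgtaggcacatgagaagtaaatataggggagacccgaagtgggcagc
Hex-A: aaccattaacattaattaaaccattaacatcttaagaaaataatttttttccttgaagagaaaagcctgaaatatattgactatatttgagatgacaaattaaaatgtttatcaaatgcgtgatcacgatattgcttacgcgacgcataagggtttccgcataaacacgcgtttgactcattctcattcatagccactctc

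The windows of CG14100, Gapdh2 and elav, whose summits lay outside the gene, were at chr3L:19590521-19590721, chrX:15867884-15868084 and chrX:523401-523601. Those of fok and Hex-A, with summits also outside the gene, were at chr2L:20085135-20085335 and chrX:9585443-9585643, and that of larp, with its summit in an intron, was at chr3R:28326479-28326679. Their GC content was 37.3% for CG14100, 29.9% for Gapdh2, 34.8% for larp, 35.8% for elav, 40.3% for fok and 32.3% for Hex-A. All 6 windows shown were below the mean of 44.0% over the 2353 members, but the 25 best-ranked windows ranged up to 62.7%.

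The next 3 sequences belong to high-ranked members that hold the 9-letter word and were chosen after their values were seen, and the last 2 to high-ranked members that hold Ohler motif 7.
ph-p: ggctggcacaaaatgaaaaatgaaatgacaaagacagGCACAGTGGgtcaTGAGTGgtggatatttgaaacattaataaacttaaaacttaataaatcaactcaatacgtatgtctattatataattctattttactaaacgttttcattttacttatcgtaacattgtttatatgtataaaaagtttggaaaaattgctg
RapGAP1: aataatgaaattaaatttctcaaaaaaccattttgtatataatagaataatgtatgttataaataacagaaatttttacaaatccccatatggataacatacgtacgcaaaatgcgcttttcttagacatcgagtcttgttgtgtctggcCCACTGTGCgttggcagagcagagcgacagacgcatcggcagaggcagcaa
Glyp: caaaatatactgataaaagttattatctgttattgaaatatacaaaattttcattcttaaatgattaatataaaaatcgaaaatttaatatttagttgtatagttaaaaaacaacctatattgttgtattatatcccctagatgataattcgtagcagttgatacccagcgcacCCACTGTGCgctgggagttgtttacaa
TRAM: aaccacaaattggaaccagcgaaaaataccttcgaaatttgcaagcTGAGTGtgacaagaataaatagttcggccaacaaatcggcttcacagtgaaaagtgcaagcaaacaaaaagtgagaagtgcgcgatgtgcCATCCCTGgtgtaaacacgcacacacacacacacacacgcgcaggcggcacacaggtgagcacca
cbt: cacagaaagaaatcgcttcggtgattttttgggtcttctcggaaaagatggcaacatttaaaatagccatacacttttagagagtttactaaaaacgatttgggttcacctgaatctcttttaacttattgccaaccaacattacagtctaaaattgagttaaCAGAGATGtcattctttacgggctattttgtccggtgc

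The windows were at chrX:2137850-2138050 for ph-p, chr2L:7530594-7530794 for RapGAP1, chr2L:2130545-2130745 for Glyp, chrX:935269-935469 for TRAM and chr2L:479970-480170 for cbt. Glyp encodes glycogen phosphorylase and cbt encodes the transcription factor Cabut. Glyp ranked 140, 108 and 117 in replicates 1, 2 and 3, and cbt ranked 26, 125 and 180.

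One-way promoters took a larger share of the reproducible peaks than of the weaker regions. They made up 31.2% of the IDR peaks (95% Clopper-Pearson interval 30.1 to 32.2%, 2353 of 7545) and 15.7% of the pooled regions outside the IDR set, called weaker here (15.2 to 16.2%, 3150 of 20036). The odds ratio was 2.43 (two-sided Fisher's exact test, p = 1.11e-168 after Benjamini-Hochberg adjustment over the 9 tests of shares). Among the strongest 7545 regions of each replicate, one-way promoters held 31.8% in replicate 1, 28.5% in replicate 2 and 31.5% in replicate 3 (30.6 ± 1.85%, SD, n = 3). Intervals cover counting error only, and all p-values compare peaks or genes within these samples, not embryo collections. Neighbouring peaks and peaks of 1 gene are also not independent. Counts of all peaks do not allow for this, so their p-values can be too small.

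Summits lay mostly upstream of the start. Of the members, 1559 (66.3%) were upstream of their nearest TSS, against 1858 of 3150 weaker one-way regions (59.0%), a difference of 7.27 percentage points (adjusted p = 1.10e-07 by Fisher's exact test). Members had a median position 61 bp upstream, written -61, and an interquartile range between -183 and 30 bp. In each replicate's own regions the upstream share was 60.2%, 71.3% and 67.8% for replicates 1, 2 and 3. The upstream share was not particular to one-way peaks: 1033 of 1465 head-to-head summits (70.5%) were upstream, given with no test. Head-to-head summits had a similar median of -60 bp with a narrower interquartile range, between -123 and 17 bp. The rule itself limits this range. Each summit goes to its nearest TSS, and a head-to-head gene has its partner's start within 1000 bp upstream. With respect to gene bodies, 42.3% of the members (40.3 to 44.3%) lay outside the gene they were assigned to. Another 33.7% lay in an exon and 24.0% in an intron, whichever TSS of the gene was nearest.

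**Figure D1:**
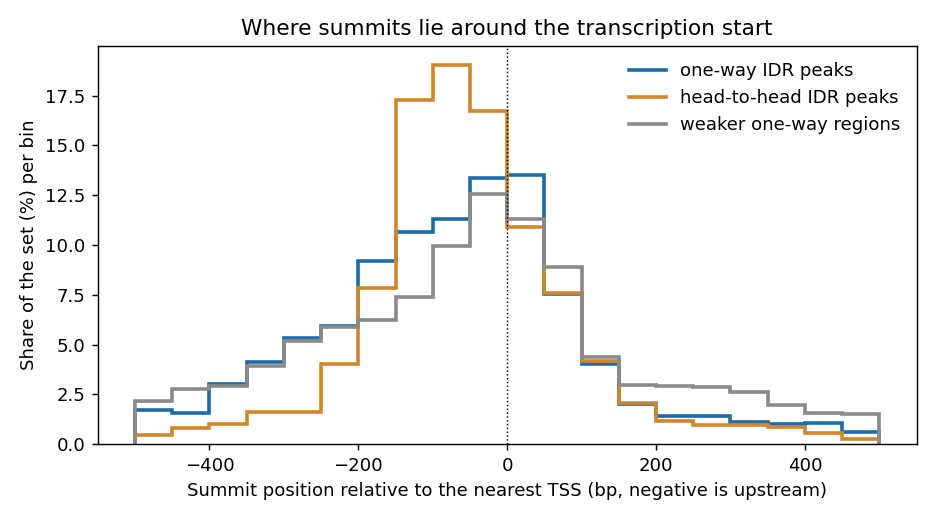
Position of summits relative to the nearest TSS (x axis, bp, negative is upstream) as a share of each set (y axis, %), in bins, for one-way IDR peaks, head-to-head IDR peaks and weaker one-way regions. One-way summits extend further upstream than head-to-head summits, whose interquartile range is -123 to 17 bp. The upstream reach of head-to-head summits is limited by assignment to the nearest TSS. Fewer one-way summits lie downstream than of the weaker regions.

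Position went with rank. The members were cut by rank into 4 groups of 588 or 589. In the strongest group the median position was -125 bp and 76.4% were upstream, in the second group -52 bp and 65.5%, in the next -55.5 bp and 66.0%, and in the weakest group -23 bp and 57.1%. The band between -300 and -100 bp held 41.6% of the strongest group and 24.7% of the weakest. It held 31.4% of all members and 31.2% of head-to-head peaks. Each replicate's own regions, grouped the same way, had the same order at the ends: the strongest group had medians of -95, -149.5 and -120 bp in replicates 1, 2 and 3, and the weakest group -21, -53 and -28 bp. Of the 25 best-ranked members 24 were upstream, with a median of -173 bp and 20 of them inside the band. These positions are a description across peaks of the same samples.

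The strongest summits were also poorer in G and C in the pooled ranking, but not in every replicate. Mean GC content of the 201 bp windows was 42.2% in the strongest of the 4 rank groups, then 44.4%, 44.3% and 45.1%, with an SD among windows of 9.16 percentage points over all members. The 25 best-ranked windows had a median of 36.8% and a range between 27.9% and 62.7%. In the replicates' own regions the strongest group had 45.0%, 39.2% and 41.5% in replicates 1, 2 and 3, and the weakest group 45.6%, 43.1% and 44.4%. Replicate 1 thus had nearly equal values in both. Position moves with this: windows centred 173 bp upstream of the most 5′ TSS had a mean GC content of 38.6% at one-way genes with a peak (n = 1501) and 37.6% at the other one-way genes (n = 7572). The part of position in the GC content was not tested. In the pooled ranking, head-to-head windows had the same order, with means of 36.9%, 38.7%, 39.8% and 41.1% from their strongest rank group to their weakest. Peaks over 500 bp from every TSS had 43.2% in both their strongest and their weakest group.

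The 25 best-ranked members, by the mean of their 3 replicate ranks, belonged to genes of different roles, which are named here as background. Ranks count from 1, the strongest of 30000 regions, and are given for replicates 1, 2 and 3. CG14100 had ranks of 20, 1 and 1. HmgZ, a high mobility group chromatin protein, had 2 members at different TSSs, one with ranks of 4, 10 and 11 and the other with ranks of 1, 13 and 14. Gapdh2, the glycolytic enzyme glyceraldehyde-3-phosphate dehydrogenase, had ranks of 5, 9 and 15. These 4 peaks, and that of Sox14, stood within the strongest 20 regions of every replicate. Hex-A, a hexokinase of the same pathway, ranked 48, 51 and 41.

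Some of the 25 lay at genes of transcription and chromatin regulators. Sox14, a transcription factor with an HMG box, ranked 18, 14 and 12. The Polycomb group gene ph-p ranked 60, 30 and 57, and its summit, 421 bp downstream of the TSS in an exon, was the single downstream one of the 25. The forkhead factor gene fkh, which acts in the gut and salivary glands, ranked 79, 81 and 77, the closest agreement of the 25 between replicates (SD 2.00). The HMG-box gene bbx ranked 88, 36 and 59. Atf3, a basic leucine zipper factor, ranked 170, 45 and 39, so replicate 1 placed it lower. The nuclear regulator gene tara ranked 21, 89 and 83, here highest in replicate 1, and sbb ranked 85, 87 and 119.

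The rest had other roles or are named alone. The neuronal RNA-binding protein gene elav ranked 46, 19 and 31, and larp, which encodes a La-related RNA-binding protein, ranked 32, 29 and 34. Pax, which encodes the focal adhesion protein paxillin, ranked 57, 41 and 48. The receptor gene moody, needed for the blood-brain barrier, ranked 77, 33 and 58, and amon, a prohormone convertase gene, 73, 65 and 85. Replicate 1 placed CG31145 (149, 57 and 62) and the GTPase-activating protein gene RapGAP1 (146, 67 and 60) lower than the others did, and the transporter gene MFS10 (51, 99 and 143) higher. The remaining members of the 25 were Pdrg1, Tina-1, fok, CG1635 and TRAM, with mean ranks between 13.3 (Pdrg1) and 69.0 (TRAM).

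**Figure D2:**
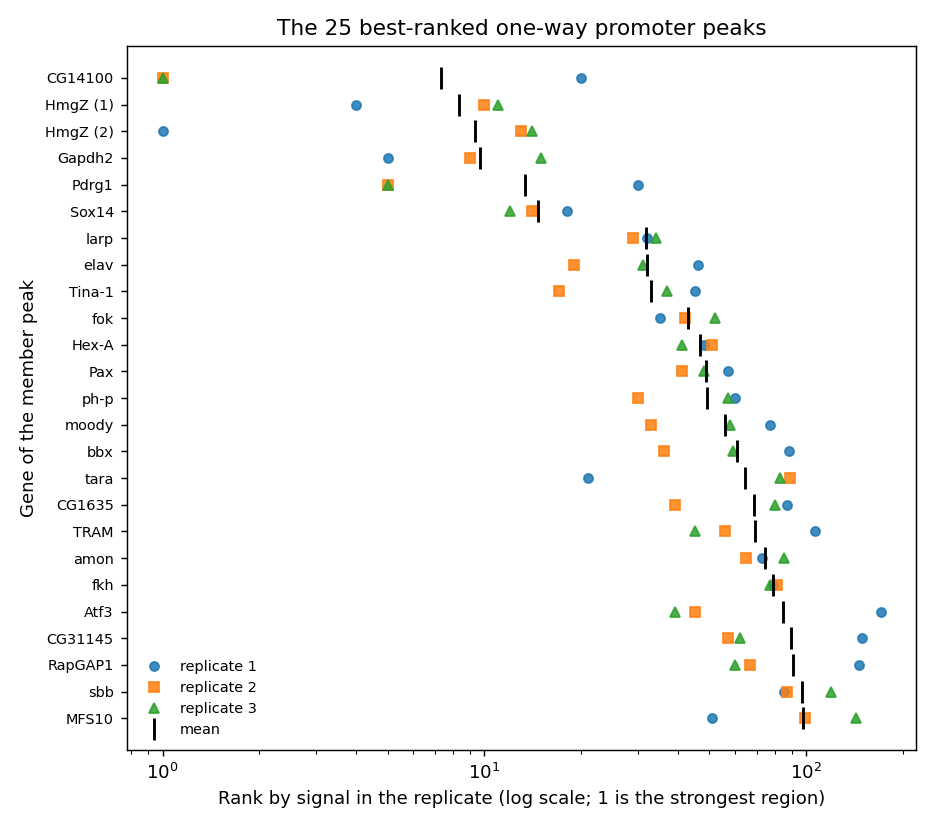
Rank by signal in each replicate (x axis, log scale, 1 is the strongest region) of the 25 members with the best mean rank, 1 row per peak with its gene; points are replicates and bars their mean. HmgZ and Gapdh2 stay at rank 15 or better in every replicate, and Atf3 spreads between 39 and 170.

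Which promoter class was recovered more often depended on the replicate. A peak was counted as recovered when one of the strongest 7545 regions of a replicate had its summit within 200 bp. All 3 replicates recovered 1368 members (58.1%), against 823 head-to-head peaks (56.2%) and 188 noncoding starts (60.5%); neither difference passed (Fisher's exact test, adjusted p = 0.269 and 0.463). Among all 30000 regions of each replicate, 2132 members (90.6%) had a match in all 3. The IDR set was selected from these same replicates, so a high recovery follows from the selection and is no separate measure of reproducibility. Replicate 1 recovered 82.0% of members and 72.9% of head-to-head peaks, replicate 2 recovered 78.5% of members and 84.2% of head-to-head peaks, and replicate 3 recovered 85.8% of members and 89.1% of head-to-head peaks. All 3 single-replicate differences passed (Fisher's exact test, Benjamini-Hochberg adjusted over 6 tests, p = 2.75e-10, 4.19e-05 and 0.00684), and the sign in replicate 1 was opposite to that in the others. Without replicate 1, recovery was 70.9% for members and 78.4% for head-to-head peaks, a reversed difference of -7.50 percentage points (Fisher's exact test, adjusted p = 5.79e-07).

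**Figure D3:**
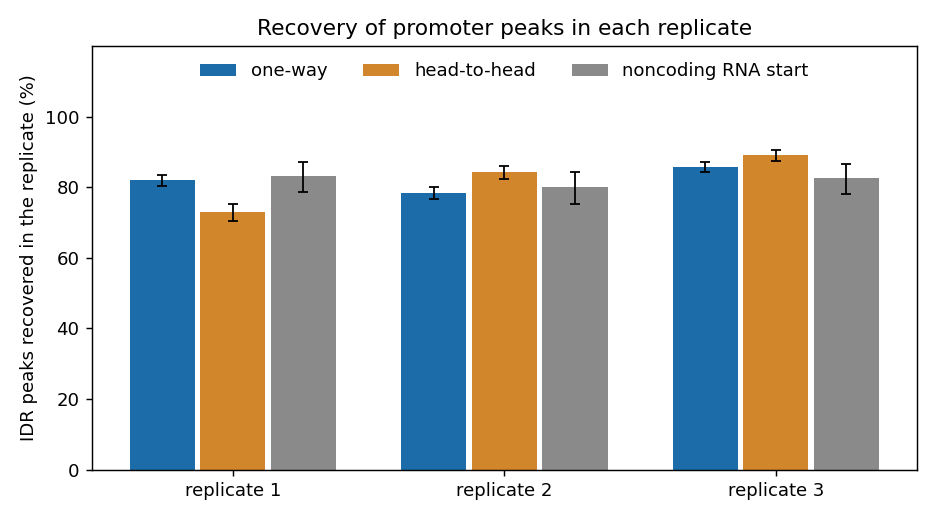
Share of IDR peaks recovered in each replicate (y axis, %) for one-way, head-to-head and noncoding RNA start peaks; bars are shares and lines 95% Clopper-Pearson intervals. One-way peaks stand above head-to-head peaks in replicate 1, at 82.0% against 72.9%, and below them in replicates 2 and 3.

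In the pooled ranking, one-way peaks were weaker than head-to-head peaks, as in the own regions of replicates 2 and 3 but not of replicate 1. The upper 50% of the IDR set by pooled signal held 1247 of the 2353 members (53%, interval 51.0 to 55.0%) and 59.7% of head-to-head peaks (57.1 to 62.2%), an odds ratio of 0.762 (Fisher's exact test, adjusted p = 0.000131). Median ranks in the IDR set were 3552 for members and 3047 for head-to-head peaks. In the replicates' own regions the share of one-way regions in the upper 50% was 54.4%, 54.1% and 51.5% in replicates 1, 2 and 3, against 53.2%, 60.4% and 62.4% for head-to-head regions, so replicate 1 again differed. With only the peaks that replicates 2 and 3 recovered, the difference shrank to -1.75 percentage points (Fisher's exact test, adjusted p = 0.372). These peaks were still ranked by the pooled signal, which includes replicate 1. Against peaks at noncoding starts, 49.2% of which were in the upper 50%, the difference of 3.80 points did not pass (Fisher's exact test, adjusted p = 0.269). With 1 summit per gene, the strongest, it was 8.53 points and passed (Fisher's exact test, adjusted p = 0.0156). With a TSS within 200 bp it was 1.78 points (Fisher's exact test, adjusted p = 0.880). For the upper 1886 peaks in place of the upper 50% it was -0.307 points (Fisher's exact test, adjusted p = 0.893).

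Values on either side of the limits of the rule were as follows. The 118 members between 401 and 500 bp from a TSS had a median rank of 3310.5, and the 110 peaks just outside, between 501 and 600 bp from a protein-coding one-way TSS, 3591.5. The 37 members whose opposite-strand neighbour began between 1001 and 1100 bp away had a median rank of 3671, and the 46 head-to-head peaks with a neighbour between 901 and 1000 bp away 4203.

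Long genes and genes with several starts had a peak most often. Of one-way genes with 2 or more annotated TSSs 41.1% had a peak (984 of 2397), against 11.5% of those with 1 TSS (798 of 6957; Fisher's exact test, adjusted p = 2.34e-198). The share was 33.2% with 2 TSSs, 47.9% with 3 and 72.0% with 4 or more. A gene with more starts offers more windows. Counting peaks at the most 5′ TSS alone, 29.3% of multi-start genes had one, and the difference from 11.5% still passed (Fisher's exact test, adjusted p = 1.89e-84). With the one-way genes cut by length into 4 groups of equal size, 4.57% of the shortest group (up to 1134.5 bp), 10.7%, 21.5% and 39.4% of the longest group (over 5575.5 bp) had one. Within the longest group the share was 50.6% with 2 or more TSSs and 26.7% with 1 TSS, and within the shortest 19.1% with 2 or more and 3.57% with 1.

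Several genes held many members. The 1782 genes were made up of 1351 with 1 member peak, 331 with 2 and 100 with 3 or more, and ps had 7, Rtnl1 6, cnc 6, larp 5, Hnf4 5 and Pgk 5, these genes having been named for their counts. At genes with several TSSs, 631 of 1466 members (43.0%) were nearest the most 5′ TSS, which made up 38.9% of the TSSs of all such genes. The latter share includes genes without a peak, and genes with more TSSs had a peak more often, so the shares are not like for like. A further peak in the gene, over 500 bp from every TSS, was found in 573 of the bound genes (32.2%) and in 4.36% of the other one-way genes. Bound genes had a median length of 5970 bp and the other one-way genes 1802.5 bp, and the part of length in this difference was not tested.

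A single split by the distance to the gene upstream did not pass the test, and neither did the difference by chromosome. Of genes with another gene body within 1000 bp upstream of the most 5′ TSS, or over it, 18.4% had a peak, against 19.9% of the others (Fisher's exact test, adjusted p = 0.125). Over finer classes, given with no test, the share was 16.2% (14.7 to 17.8%) where another gene covered the start, 20% (18.6 to 21.4%) with a gene body on the same strand between 1 and 1000 bp upstream, 22.4% (20.7 to 24.2%) over 1000 and up to 5000 bp, and 16.6% (14.9 to 18.4%) over 5000 bp. On the X chromosome 312 of 1489 one-way genes (21.0%) had a peak, against 18.7% on the autosomes, chromosome 4 left out (Fisher's exact test, adjusted p = 0.0862). The X difference of 2.21 percentage points passed with a head-to-head limit of 2000 bp (2.67 points, adjusted p = 0.0387) and without replicate 2 (2.13 points, adjusted p = 0.0462; Fisher's exact tests).

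The gene lists with the largest shares of genes with a peak were those of cytoplasmic ribosomal proteins, glycolytic enzymes, signalling pathways, and the Polycomb and Trithorax group. The lists are described by counts and medians with no test, beside 19.1% of all one-way genes and a median best rank of 3151.5. Of 37 cytoplasmic ribosomal protein genes at one-way promoters 24 had a peak (64.9%, 47.5 to 79.8%), with a median best rank of 1275. RpS10b ranked 193, 342 and 111 in replicates 1, 2 and 3, RpL23A 339, 359 and 96, and RpL11 372, 331 and 140. Replicate 3 placed all 3 of these highest. Of 8 glycolytic genes 5 had a peak, with a median best rank of 284; besides Gapdh2 and Hex-A, Ldh, the lactate dehydrogenase gene, ranked 415, 233 and 365. Other translation and mitochondrial lists were near or below the share of all one-way genes: 7 of 28 translation factors, among them the elongation factor eEF1gamma (473, 164 and 88), 2 of 17 mitochondrial ribosomal proteins and 6 of 50 oxidative phosphorylation subunits. With 1 replicate left out these had between 4 and 5, between 1 and 2, and between 2 and 4 genes with a peak.

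Developmental lists were covered unevenly. Signalling pathway genes had a peak at 25 of 41 (61.0%), with the kinase gene sgg at 272, 140 and 204 and the insulin receptor gene InR at 279, 1217 and 907. Of Polycomb and Trithorax group genes 9 of 15 had one, among them Su(z)2 (236, 897 and 636) and ph-d (469, 2013 and 920), both ranked highest in replicate 1. Nuclear receptors had 8 of 17, with the ecdysone-induced Eip75B at 420, 287 and 325. Muscle genes had 12 of 21, led by the troponin C gene TpnC73F (320, 373 and 983), and septate junction and epithelial genes 7 of 15. Lower counts were seen for segmentation genes (8 of 26, with the pair-rule gene hry at 59, 155 and 173), neurogenesis regulators (9 of 30) and Hox genes (2 of 8). Neuronal genes had 13 of 33 and cell cycle genes 10 of 23, with median best ranks of 4367 and 4731.5, weaker than that of all one-way genes. With 1 replicate left out, so that only peaks recovered in both others counted, the share of all one-way genes was between 13% and 14.4%. Cytoplasmic ribosomal protein genes then had between 21 and 23 of 37, glycolytic genes 5 of 8 each time, signalling genes between 18 and 23 of 41, and Polycomb and Trithorax genes between 7 and 9 of 15. Muscle genes had between 7 and 10 of 21, neuronal genes 7 of 33 each time and cell cycle genes between 4 and 7 of 23. Nuclear receptors had between 5 and 7 of 17, segmentation genes between 5 and 6 of 26 and Hox genes between 0 and 2 of 8. Neurogenesis regulators had between 6 and 7 of 30, and septate junction and epithelial genes between 5 and 6 of 15.

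The cuticle, odorant and gustatory receptor, antimicrobial peptide and eggshell lists had none. No peak was found at 128 cuticle protein genes (0%, upper limit 2.84%), 157 odorant and gustatory receptor genes (upper limit 2.32%), 24 antimicrobial peptide genes (14.2%) or 13 eggshell genes (24.7%). There were 2 at 41 odorant-binding protein genes, 7 at 74 cytochrome P450 genes and 1 at 19 digestive serine protease genes. Cellular machinery lists were in between: 4 of 26 proteasome subunits, 3 of 14 RNA polymerase II and TFIID subunits, 1 of 10 Mediator subunits, 2 of 4 nucleoporins, 3 of 15 Rab GTPases, 4 of 21 vacuolar ATPase subunits, 3 of 16 kinesins and dyneins, 7 of 21 heat shock and chaperone genes, 3 of 12 actins and tubulins and 5 of 11 insulator and core promoter factors. With 1 replicate left out, Mediator subunits and digestive serine proteases had 0 each time, nucleoporins between 0 and 1, heat shock and chaperone genes between 3 and 4, cytochrome P450 genes between 4 and 5 and odorant-binding protein genes between 1 and 2. Rab GTPases, kinesins and dyneins, and actins and tubulins each had between 2 and 3. The shares of one-way genes with a peak moved with gene length and TSS number, and their part in these lists was not tested.

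**Figure D4:**
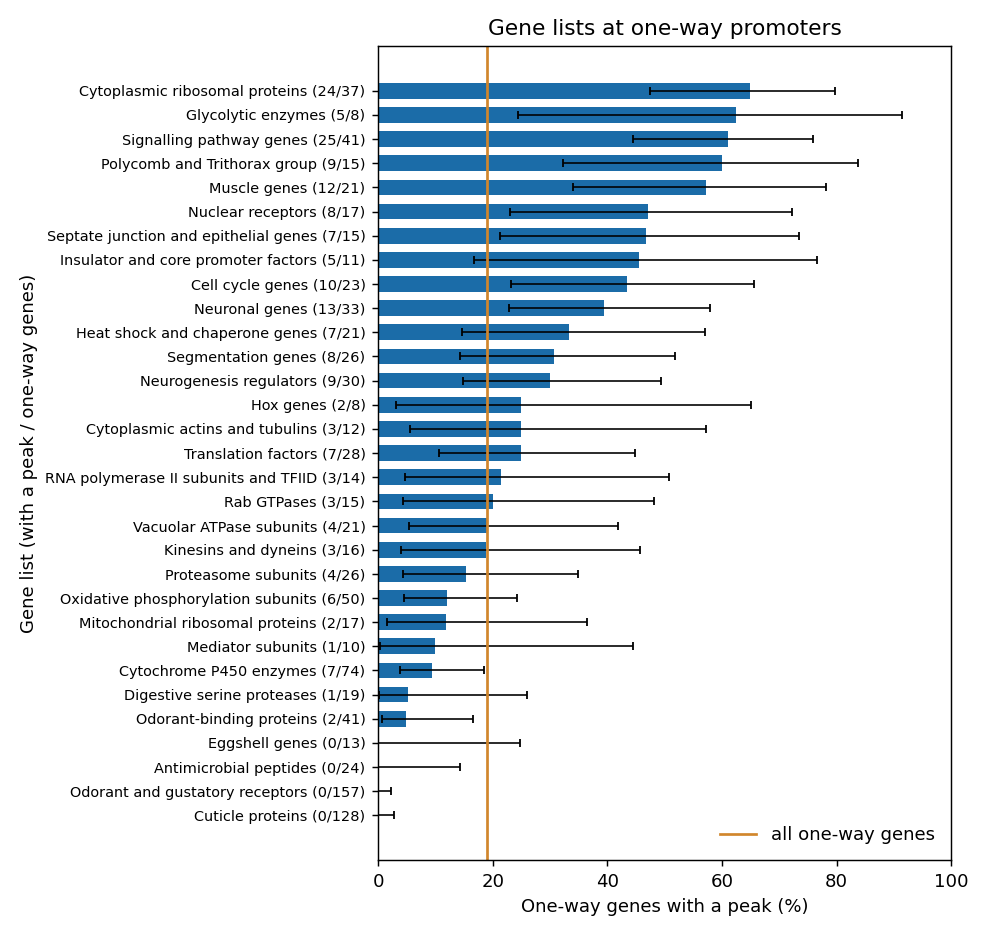
Share of one-way genes with a member peak (x axis, %) for each gene list with 8 or more one-way genes, with counts in the labels; bars are shares, lines 95% Clopper-Pearson intervals, and the vertical line is the share of all one-way genes, 19.1%. Cytoplasmic ribosomal protein genes are highest at 64.9%, and 4 lists are at 0%.

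Several promoter motifs were more frequent at the summits than beside them. Of the 40 motifs searched on both strands in the 201 bp windows, 12 (30%) were present more often at the summit than in a window 500 bp away, and 8 (20%) less often (exact McNemar test, Benjamini-Hochberg adjusted over 40 motifs). Among the motifs that passed, the largest odds were those of the DRE, held by 2.55% of summits and 0.467% of flanks (odds ratio 5.45, interval 2.84 to 11.5, exact McNemar test, adjusted p = 2.63e-08), and of Motif 1, the site of M1BP, with 1.87% of summits and 0.382% of flanks (4.89, adjusted p = 6.10e-06). Next were the CTCF core (1.36% of summits and 0.425% of flanks), Ohler motif 7 (13.5% of summits and 5.99% of flanks, adjusted p = 7.41e-17) and the Zeste motif (40.8% of summits and 26.4% of flanks, adjusted p = 2.29e-24, exact McNemar tests). The CTCF core did not pass with the flank on the other side (0.722% of flanks, adjusted p = 0.0845), in the upper 50% of the set (adjusted p = 0.399) or without replicate 3 (adjusted p = 0.157; exact McNemar tests), and the calls of the other 4 passed under all alternatives run. A motif held by a small share of windows leaves most members without it. Of the motifs that were rarer at the summit, the Bicoid site TAATCC was held by 4.42% of summits and 8.37% of flanks, and the nuclear receptor site AGGTCA by 2.68% of summits and 4.67% of flanks. Mean GC content was 44.0% at summits and 41.6% in the flanks on both sides.

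Against weaker one-way regions, the motif content was nearly the same. Ohler motif 7 alone of the 40 passed, with 13.5% of members and 9.81% of weaker regions (odds ratio 1.44, adjusted p = 0.000853 by Fisher's exact test). That is 2.5% of the motifs more frequent and 0% less frequent; at an unadjusted p under 0.05, Fisher's exact test gave 7 and 5. This call was lost with summits within 200 bp of a TSS, with windows of 50 bp on each side and without replicate 3, each of which gave 0 motifs, whereas 3 passed without replicate 2. The DRE was held by 2.55% of members and 3.08% of weaker regions (adjusted p = 0.562 by Fisher's exact test), and Motif 1 by 1.87% of members and 1.94% of weaker regions (adjusted p = 0.958).

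One-way summits held the DRE less often than head-to-head summits and the GAGA, Zeste and SMAD motifs more often, under all alternatives run. Of 40 motifs 5 (12.5%) were more frequent at one-way summits and 10 (25%) less frequent (Fisher's exact test, adjusted over 40 motifs). The DRE was held by 2.55% of one-way and 7.24% of head-to-head summits (odds ratio 0.335, adjusted p = 1.43e-10 by Fisher's exact test). Motif 1 was held by 1.87% of one-way and 3.96% of head-to-head summits (exact test, adjusted p = 0.000575), and Ohler motif 7 by 13.5% of one-way and 20.3% of head-to-head summits (adjusted p = 2.92e-07). Ohler motif 6 was at 3.44% of one-way and 5.12% of head-to-head summits (exact test, adjusted p = 0.0335), and the BEAF-32 motif CGATA, which lies within the DRE, at 33.2% of one-way and 40.4% of head-to-head summits. Motif 1 did not pass in the upper 50% of the set (adjusted p = 0.167), with windows of 50 bp on each side (0.428), or without replicate 2 (0.0516) or replicate 3 (0.180; exact tests). Ohler motif 7 did not pass with windows of 50 bp (exact test, adjusted p = 0.122), the BEAF-32 motif without replicate 3 (0.0616), and Ohler motif 6 with a head-to-head limit of 2000 bp (0.0515), with windows of 50 bp (0.149) or without replicate 1 (0.0560). In each replicate's own regions the DRE was rarer at one-way regions too, at 1.91%, 2.79% and 4.37% in replicates 1, 2 and 3, against 5.34%, 7.26% and 9.45% at head-to-head regions.

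The GAGA motif, bound by GAGA factor, was held by 8.33% of one-way and 4.30% of head-to-head summits (odds ratio 2.02, Fisher's exact test, adjusted p = 3.76e-06). The CA repeat CACACAC was at 13.7% of one-way and 9.08% of head-to-head summits, and the Zeste motif at 40.8% of one-way and 26.6% of head-to-head summits. The SMAD motif GNCGNC was at 43.2% of one-way and 30.2% of head-to-head summits, and the CACCC box CCACACCC at 0.765% of one-way and 0.137% of head-to-head summits. The CA repeat did not pass with windows of 50 bp (exact test, adjusted p = 0.462), nor the CACCC box with windows of 50 bp, a limit of 2000 bp, 1 summit per gene, the upper 50% of the set or without replicate 2 (exact tests, adjusted p between 0.0660 and 0.395). The replicates' own regions had the GAGA motif at 10.9%, 7.67% and 7.61% of one-way regions and at 6.35%, 3.43% and 3.74% of head-to-head regions. The A- and T-rich TATA box, Caudal, homeodomain and Sox motifs were rarer at one-way summits, the TATA box at 23.8% of one-way against 35.4% of head-to-head summits, and the Su(Hw) core was at 0.595% of one-way and 1.43% of head-to-head summits. The Su(Hw) core did not pass under 7 of 9 alternatives (exact tests, adjusted p between 0.0587 and 0.204). GC content moved with these differences, at a mean of 44.0% in one-way and 39.1% in head-to-head windows, and its part in them was not tested.

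Differences in the other core promoter motifs between the classes did not pass the test. The initiator (TCA, then G or T, then T, then C or T) was held by 45.2% of one-way and 41.6% of head-to-head summits (Fisher's exact test, adjusted p = 0.0688), and by 39.1% of the flanks. The downstream promoter element AGACGT was held by 3.65% of one-way and 3.89% of head-to-head summits (adjusted p = 0.854 by Fisher's exact test). The polypyrimidine initiator was held by 26.9% of one-way and 27.2% of head-to-head summits, and Ohler motif 5 (CAGCTG) by 12.5% of one-way and 12.6% of head-to-head summits (exact tests, adjusted p = 1 for both).

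**Figure D5:**
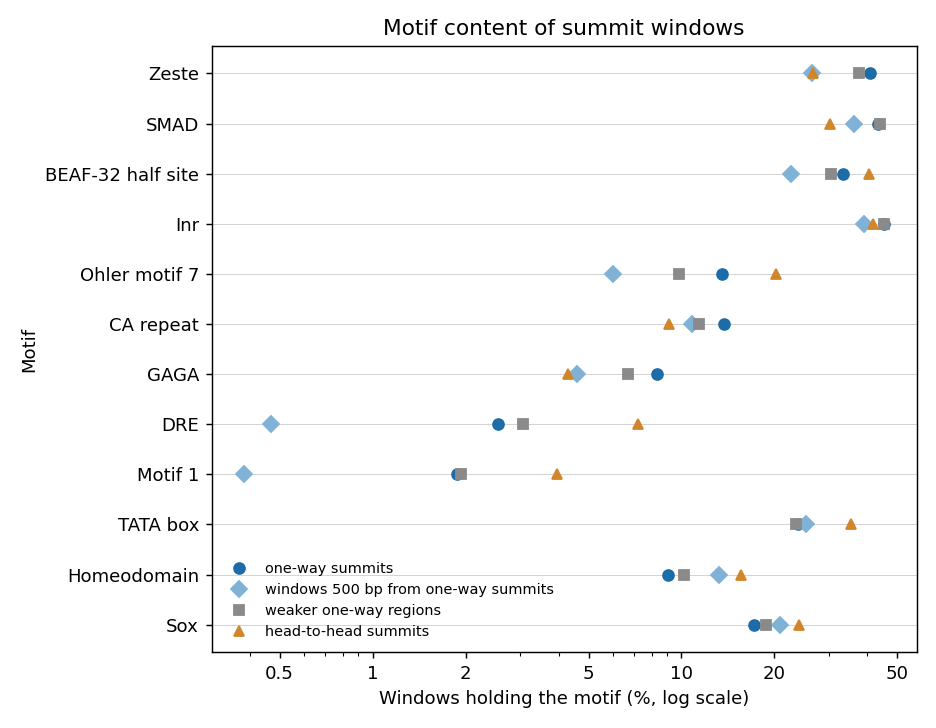
Share of 201 bp windows that hold a motif (x axis, %, log scale) for 12 motifs chosen to show the calls, at one-way summits, in windows 500 bp from them, in weaker one-way regions and at head-to-head summits. The DRE is at 2.55% of one-way summits and 7.24% of head-to-head summits, and the GAGA motif at 8.33% of one-way and 4.30% of head-to-head summits.

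The annotated starts of genes with a peak also differed from those of the other one-way genes. At the most 5′ TSS, on the strand of the gene, the initiator within 10 bp was present at 21.8% of one-way genes with a peak there (19.7 to 24.0%, n = 1501) and at 13.5% of the other one-way genes (12.8 to 14.3%, n = 7572). A TATA box between 40 and 15 bp upstream was present at 4.53% of genes with a peak and 11.5% of the others. Between 100 bp upstream and 50 bp downstream, Ohler motif 7 was present at 14.9% of genes with a peak and 8.94% of the others, and the GAGA motif at 7.40% of genes with a peak and 2.84% of the others. Motif 1 was present at 4.86% of genes with a peak and 2.97% of the others, the DRE at 5.86% and, in the others, 4.65%, and Ohler motif 6 at 4.20% and, in the others, 5.24%. These shares were not tested, and the other genes include the families without a peak.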

How the data were processed

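CG10543-eGFP was mapped by ChIP-seq in 3 biological replicates of whole embryos, with sonicated fragments of 200 to 800 bp per the labels. The authors deposited ranked region lists per replicate and pooled, each called against a control alignment per the file descriptions, and an IDR-thresholded list; the sources used here name neither the aligner nor the peak caller or its settings. The deposited signal per region was used for ranks within a list only, and the deposited −log10 q-value only to describe the lists: per replicate between 7016 and 12593 regions had a q-value under 0.01. Only dm6 lists were used.

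Summits were assigned to genes of Ensembl release 115, with sequence from RefSeq. For equal starts, upstream meant strictly upstream, which gave 4591 head-to-head genes. Weaker regions were the 20036 of 30000 pooled regions that overlap no IDR peak. Flanks were windows 500 bp away on a random side (seed 1). Two-sided Fisher's exact tests served for shares and exact McNemar tests for summit and flank windows, with Benjamini-Hochberg adjustment at 0.05. Scripts used Python 3.11.15, scipy 1.17.1 and pandas 2.3.3, and the tests were tested on simulated data. Recovery matched summits within 200 bp, and 55 members had a nearest TSS shared by several genes.

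Named were the 25 members with the best mean rank among those matched in all 3 replicates, up to 3 genes per list with the strongest peaks, the 5 motifs with the largest odds per comparison and core promoter motifs; others are said to be chosen for their values. Of the 32 gene lists, 14 listed symbols matched no gene. Members, lists and motifs were chosen with earlier results of these data known. Alternatives were other TSS and head-to-head limits, stronger peaks only, 1 summit per gene, the most 5′ TSS only, other windows, and each replicate left out.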

Additional observations from a re-analysis of the deposited data

How the results depend on the processing

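Of 73 alternative values of the 9 share differences 66 kept their side of the threshold, and of 56 counts of called motifs 50 stayed within 1.5 times. Some differences that passed in neither setting changed sign among these 66. Recovery of one-way peaks minus noncoding starts, for example, was -2.31 points and became 0.454 points with summits matched within 100 bp. Of 344 alternative values of single called motifs 59 no longer passed and 1 reversed. Recovery of one-way minus head-to-head peaks, 1.96 percentage points, was 7.83 points in the upper 50% of the set and between -7.50 and 6.11 points with 1 replicate left out, lowest without replicate 1 and highest without replicate 2. The difference from head-to-head peaks in the share within the upper 50% was between -8.66 and -1.75 points with 1 replicate left out. It missed the threshold without replicate 1. Leaving out a replicate kept only the peaks that both others recovered, and the pooled ranks still included all 3 replicates. Against noncoding starts, the difference in the share within the upper 50% was 8.53 points with 1 summit per gene. It was 1.78 points with a TSS within 200 bp and between 4.15 and 6.94 points with 1 replicate left out. For the upper 1886 peaks in place of the upper 50% it was -0.307 points. The X difference was 2.67 points with a head-to-head limit of 2000 bp and between 1.22 and 2.13 points with 1 replicate left out. With a TSS within 200 bp it was -0.189 points, and in the upper 50% of the set 0.597 points. Motifs more frequent than in weaker regions numbered 0 with a TSS within 200 bp, 0 with windows of 50 bp on each side, and between 0 and 3 with 1 replicate left out. Motifs more frequent than at head-to-head summits numbered 3 with windows of 50 bp, and motifs less frequent at the summit than in the flank between 4 and 7 with 1 replicate left out. The CA repeat reversed against the flank with windows of 50 bp, a difference of -0.68 points. The cause was not tested; a window of 50 bp holds fewer matches, and leaving out a replicate leaves fewer peaks. Requiring that both genes of a head-to-head pair be each other's nearest upstream neighbour, chosen after seeing the data, changed no call of the 9 differences.

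No paired analysis was possible because the 3 replicates form 1 group, with no second group of samples to pair them with. Read depth is unknown, so an absent peak cannot be told from one too weak to be called.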

Other observations

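A search of all 8-letter words in the 200 strongest members, made after their ranks were seen and so given with no test, found 2 overlapping words most in excess over the flanks, which join to CCACTGTGC. The word, on either strand, was held by 18 of these 200 windows (9%, 5.42 to 13.9%) and by 2 of 400 flanking windows (0.50%). Among the other 2153 members, which the search did not use, it was held by 31 (1.44%, 0.98 to 2.04%), against 17 of 4306 flanking windows (0.395%, 0.230 to 0.631%). It was held by 67 of the 3416 peaks over 500 bp from every TSS (1.96%) and 0.454% of their flanks, by 20 of 1465 head-to-head peaks (1.37%), and by 27 of 3150 weaker one-way regions (0.857%). Members that hold it include HmgZ, ph-p, RapGAP1, Glyp, Rtnl1 and Top1, which encodes a topoisomerase.

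CG10543, the gene of the tagged protein, was a one-way gene with 2 members of its own, named because it is the gene studied. The stronger, 349 bp upstream of an internal TSS in an intron, ranked 626, 310 and 485 in replicates 1, 2 and 3 and held the word.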
